A study of Mus musculus with 3 samples.

Results

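The genes described here encode the ligands, receptors, inhibitors and intracellular carriers of Wnt, BMP and TGF-beta signalling. They were chosen by name: every non-control probe set (the short probes that together report a transcript) whose only platform gene symbol began with a Wnt, Frizzled, Sfrp, Dkk, Dishevelled, Axin, Gsk3, BMP, TGF-beta, Smad, activin, inhibin or GDF family name, or was Lrp5, Lrp6, Apc, Ctnnb1, Fst, Nog or a chordin. The rule took 103 of 12422 probe sets and 84 of 8251 named genes, and no measured value entered it. RNA came from wild-type neural retina taken at postnatal day 10 from mice of a mixed 129/SvEv and C57BL/6 background. Their Rp1-/- littermates served parallel experiments and were not analysed here. There was 1 group of 3 samples, numbered pools 1 to 3 in accession order, each combining retinas of 3 to 4 mice taken from 1 to 2 pm, and each was hybridised to an Affymetrix U74Av2 array. Titles of pools 2 and 3 contain the name Rp1, but the descriptions give all 3 as wild type, and the grouping follows these. With 1 group, no test between conditions was possible, so levels and their spread between pools are reported. Because mice were pooled, differences between animals within a pool cannot be seen.

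Wnt proteins bind Frizzled receptors with the co-receptors Lrp5 and Lrp6. Dishevelled proteins then restrain a complex of Axin, Apc and Gsk3 that otherwise marks beta-catenin for destruction, and spared beta-catenin enters the nucleus to act with TCF/LEF factors. BMPs, activins and TGF-betas are related ligands that join type I and type II receptor kinases, which phosphorylate receptor-regulated Smads, and these enter the nucleus with Smad4. In the eye, BMPs help to set the dorsal side of the early retina, and Norrin acting through Fzd4 is required for the retinal vessels, which are still forming in the mouse after birth.

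A gene was called above background on an array where its signal exceeded a limit set from 92 probe sets for 76 genes typical of organs other than the eye, such as liver, pancreas and muscle. The limit was the 90th percentile of their signals: 440.8 in pool 1, 485.1 in pool 2 and 394.2 in pool 3. Single arrays had between 3987 and 4577 of the 12422 probe sets above it. A gene below it may still be expressed. The limit depends on the genes chosen for it, another choice would move it, and 17 of the 103 sets had a mean within 1.5-fold of it. It is a strict limit. The median signal of the same 92 sets was only 62.9, 88.35 and 87.3 in pools 1 to 3. Over the whole array the median was 234.15, 254.1 and 243.3. Defining markers of neural retina were present, with all 7 measured rod, all 4 amacrine and all 4 Müller glia markers above the limit on all 3 arrays, and 0 of 6 pigment epithelium markers. Of these 6, however, Pmel (508.0, 348.2 and 777.1 in pools 1 to 3) and Dct (318.7, 596.4 and 604.9) were above it in 2 pools each. Among markers of other cells a retina can hold, 1 of 7 endothelial and mural, 1 of 6 fibroblast and 1 of 5 microglial genes were above it on all arrays. Lens markers were also high and unequal, with 7 of 9 above the limit on all arrays and a summed signal of 162272 in pool 1, 26566 in pool 2 and 342032 in pool 3. Across all probe sets, Pearson's r of log2 signal between pools was 0.87 to 0.90, and across the 103 Wnt, BMP and TGF-beta sets it was 0.80 to 0.83. These are correlations over genes, which are not independent replicates.

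RefSeq promoter windows (build GRCm38.p6), reaching from 250 bases before to 50 bases after an annotated start, were at hand for 54 of the 84 genes, in 63 windows. They are shown 5′ to 3′ for Ctnnb1, Gsk3a and Tgfb2, whose signals were above the limit in every pool and whose windows differ in make-up, and for Wnt4, whose signal was above it in none. Capitals mark each match, on either strand, of the GC box GGGCGG, the TCF/LEF core CTTTGA, the BMP-Smad element GGCGCC or TATAAA. Matches of the first and the third can overlap.
Ctnnb1, chr9:120933328-120933627, plus strand: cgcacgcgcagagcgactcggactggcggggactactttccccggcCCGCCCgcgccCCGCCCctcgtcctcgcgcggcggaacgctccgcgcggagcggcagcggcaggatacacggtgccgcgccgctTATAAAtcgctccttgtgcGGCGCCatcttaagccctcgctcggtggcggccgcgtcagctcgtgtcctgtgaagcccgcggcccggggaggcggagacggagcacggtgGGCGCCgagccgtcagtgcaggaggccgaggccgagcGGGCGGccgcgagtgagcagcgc
Gsk3a, chr7:25237802-25238101, minus strand: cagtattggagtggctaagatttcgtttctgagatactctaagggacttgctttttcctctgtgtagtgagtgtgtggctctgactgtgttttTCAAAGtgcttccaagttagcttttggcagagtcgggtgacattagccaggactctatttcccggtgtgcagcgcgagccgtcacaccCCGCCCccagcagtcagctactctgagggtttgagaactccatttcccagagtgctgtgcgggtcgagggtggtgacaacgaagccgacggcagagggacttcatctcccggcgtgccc
Tgfb2, chr1:186705940-186706239, minus strand: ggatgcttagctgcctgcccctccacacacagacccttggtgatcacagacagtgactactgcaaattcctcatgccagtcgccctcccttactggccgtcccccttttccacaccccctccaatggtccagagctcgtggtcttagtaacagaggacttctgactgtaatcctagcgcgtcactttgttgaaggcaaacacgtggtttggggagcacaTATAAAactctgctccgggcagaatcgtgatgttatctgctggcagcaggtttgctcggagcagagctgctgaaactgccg
Wnt4, chr4:137277385-137277684, plus strand: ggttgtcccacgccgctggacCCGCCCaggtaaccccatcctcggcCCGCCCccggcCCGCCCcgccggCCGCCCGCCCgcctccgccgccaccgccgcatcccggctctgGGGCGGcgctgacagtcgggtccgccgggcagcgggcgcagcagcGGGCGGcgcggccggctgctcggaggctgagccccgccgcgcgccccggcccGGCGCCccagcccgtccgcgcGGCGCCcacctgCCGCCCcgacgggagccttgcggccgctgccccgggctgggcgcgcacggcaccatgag
Ctnnb1 has another, overlapping window, not shown, with 3 GC boxes, 46 CpG dinucleotides and neither GGCGCC nor TATAAA. The Ctnnb1 window shown held 3 GC boxes, 2 GGCGCC elements, 1 TATAAA and 51 CpG dinucleotides. The Wnt4 window held 8 GC boxes, 2 GGCGCC elements and likewise 51 CpG dinucleotides, although the array signals of these genes lay on opposite sides of the limit. The Gsk3a window had 1 GC box, 1 CTTTGA and 14 CpG dinucleotides, and that of Tgfb2 had 1 TATAAA and 10 CpG dinucleotides. GGGCGG occurred in 46 of the 63 windows (73.0%) against 35.7% of all 32851 windows, and GGCGCC in 18 (28.6%) against 11.9%. The 32851 windows belong to 27025 RefSeq genes, not only to genes on the array. These shares therefore do not compare the members with the other genes measured. CTTTGA occurred in 6 (9.52%) against 5257 of the 32851, and TATAAA in 10 (15.9%) against 13.6%. The median CpG count was 32 (range 10 to 54) in the 9 windows of 8 genes above the limit on all arrays, 25 (range 2 to 53) in the 51 windows of 43 genes above it on none, and 7 over all windows. The ranges overlapped almost wholly, and these matches describe the sequence, not bound sites.

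Several intracellular carriers of both pathways gave clear signals, and most of the ligands did not. Of the 84 genes, taking the brightest probe set of each, 12 (14.3%) were above the limit on all 3 arrays, against 34.7% of all 8251 genes. The 12, with their Entrez gene numbers, were Fzd4 (14366), Dkk3 (50781), Ctnnb1 (12387), Gsk3a (606496), Dvl1 (13542), Tgfb2 (21808), Acvr2a (11480), Acvr2b (11481), Smad1 (17125), Smad2 (17126), Smad4 (17128) and Tgfb1i1 (21804). Another 10 were above it on 1 or 2 arrays and 62 on none. Counted by probe set, 13 of 103 (12.6%) were above on all arrays against 28.3% of all sets, and 80 of 103 (77.7%) on none against 59.0%. The share above the limit was thus lower than over the array at large, a description with no test. Of the 76 other-tissue genes that set the limit, 7 were also above it on all arrays, so passing it is not proof of expression. In a whole retina a low signal from few expressing cells cannot be told apart from a low level in many. The limit itself mattered: at the 75th percentile of the same probe sets 29 genes were above on all arrays, against 55.4% of all genes, and at the 95th percentile 8 genes, against 26.7%. Those lost at the 95th percentile were Tgfb2, Acvr2a, Smad2 and Tgfb1i1. With the mean of each gene's probe sets in place of the brightest, 10 genes were above the limit on all arrays, without Fzd4 and Acvr2a.

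**Figure D1:**
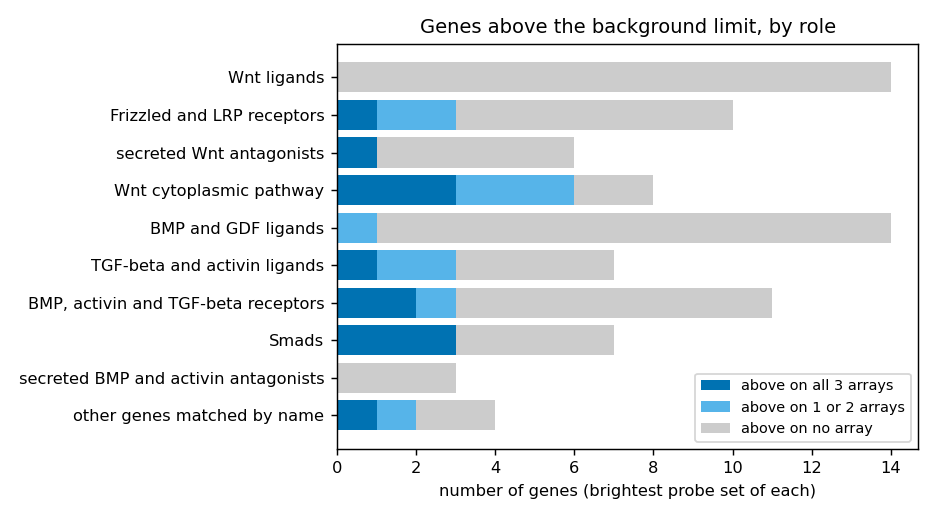
Number of genes (x axis) in each role (y axis) whose brightest probe set was above the background limit on all 3 arrays, on 1 or 2, or on none. None of the 14 Wnt ligand genes and 3 of the 7 Smad genes were above it on all arrays.

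No Wnt ligand was above the limit in any pool. The 14 genes measured were Wnt1, Wnt2b, Wnt3, Wnt3a, Wnt4, Wnt5a, Wnt5b, Wnt6, Wnt7a, Wnt7b, Wnt8a, Wnt10a, Wnt10b and Wnt11, and the mean signals of their 16 probe sets ran from 33.4 to 265.6 with a median of 90.8. Wnt1 and Wnt3, named after their values were seen, were the Wnt ligands that passed the 75th percentile limit on all arrays. Wnt1 gave 192.2, 378.7 and 225.8 in pools 1 to 3, and Wnt3 read 283.7, 212.3 and 217.8.

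Of 10 receptor and co-receptor genes, Fzd4 was above the limit in every pool. Fzd4, the receptor for Norrin, gave 939.6, 731.2 and 731.6 in pools 1 to 3 (mean 801 ± 120.2, SD, n = 3). Pools 2 and 3 were nearly equal and pool 1 was 1.29-fold above the lower of them. Ndp, the gene for Norrin, read 287.1, 325 and 144.1 in pools 1 to 3, above the limit in no pool. Fzd3, a Frizzled known for axon guidance, read 577.3 and 546.1 in pools 1 and 2 but 258.6 in pool 3, below the limit there, and the highest pool exceeded the lowest by at least 1.46-fold. Lrp6, a Wnt co-receptor, read 592.6 in pool 1, 434.9 in pool 2, below the limit, and 840.2 in pool 3, at least 1.73-fold above pool 2. These 2 genes were thus dim in different pools. Fzd1, Fzd2, Fzd6, Fzd7, Fzd8, Fzd9 and Lrp5 were above the limit in no pool.

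Among 6 secreted Wnt antagonists, Dkk3 alone was above the limit. Dkk3, a divergent member of the Dickkopf family, gave 3096, 2215 and 3880.0 in pools 1 to 3 (mean 3064 ± 833, SD, n = 3). All values were far above the limit, lowest in pool 2 and highest in pool 3, a 1.75-fold range. The Frizzled-related decoys Sfrp1, Sfrp2 and Sfrp4 and the Lrp-binding inhibitors Dkk1 and Dkk2 were not above it in any pool.

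The cytoplasmic Wnt genes held bright and closely reproduced members. Ctnnb1, beta-catenin, which also links cadherins to actin at cell junctions, gave 4211, 4812 and 4476 in pools 1 to 3 (mean 4500 ± 301, SD, n = 3). Gsk3a, a kinase of the destruction complex, read 6865, 5440 and 6579 (mean 6295 ± 754, SD, n = 3), and Dvl1, a Dishevelled adaptor, read 2010, 1519 and 1607 (mean 1712 ± 262, SD, n = 3). The range between pools was 1.14-fold for Ctnnb1, 1.26-fold for Gsk3a and 1.32-fold for Dvl1, so no pool stood far from the others for these genes.

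Axin1 and Apc, scaffolds of the destruction complex, and the Dishevelled gene Dvl2 lay nearer the limit. Axin1 read 685.1 and 771.9 in pools 1 and 3 and 357.1, below the limit, in pool 2, a difference of at least 1.59-fold. Apc read 470.2 in pool 1, above the limit, and 347.6 and 267.9 in pools 2 and 3, below it. Dvl2 read 404.1, 217.6 and 511.8 and was above the limit in pool 3 only. Each of the 3 crossed the limit between pools, so whether they were called above background depended on the pool and on its own limit. Axin2, a feedback target of the pathway that dampens it, and Dvl3 were above it in none.

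**Figure D2:**
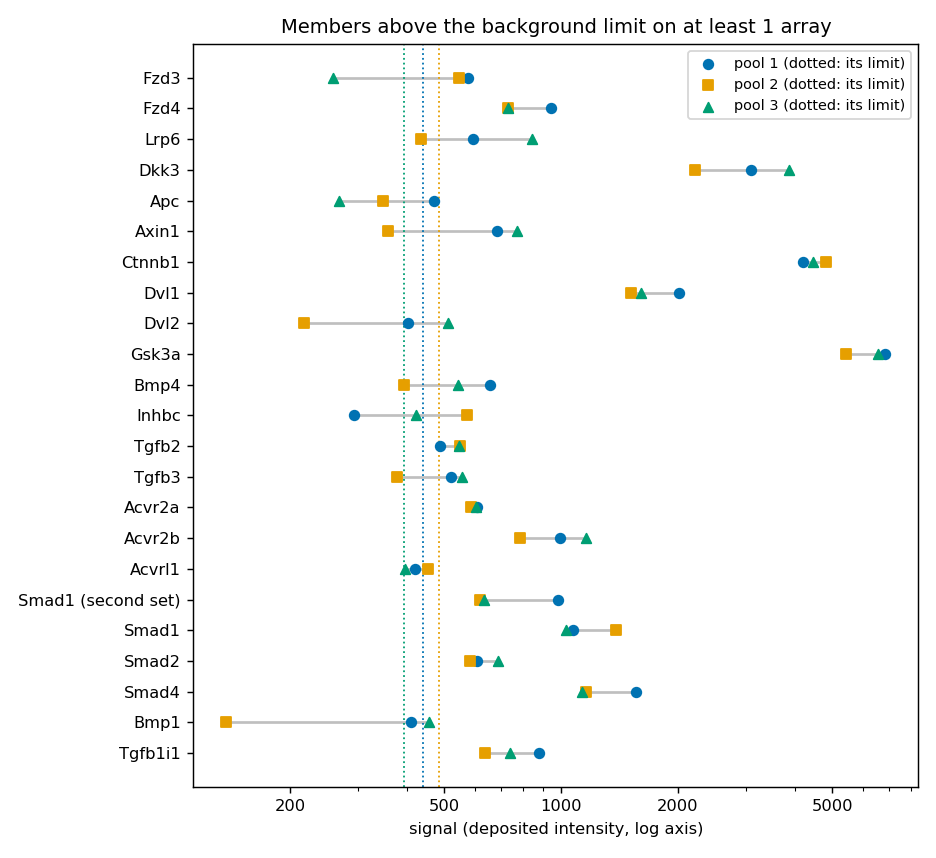
Signal in each pool (x axis, log scale) for the 23 probe sets above the background limit on at least 1 array (y axis), with grey bars joining the lowest and highest pool and dotted lines at the limit of each pool. Ctnnb1, Gsk3a, Dkk3 and Dvl1 lie far above the limits in all pools, whereas Bmp1, Dvl2 and Axin1 cross the limits.

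BMP and GDF ligands resembled the Wnt ligands in being mostly below the limit. Of 14 genes, Bmp4 was above it on 2 arrays and the other 13 on none. Bmp4, which marks the dorsal side of the embryonic retina, read 655.4 in pool 1, 394.9 in pool 2, below the limit, and 542.3 in pool 3, and pool 1 exceeded pool 2 by at least 1.35-fold. The genes above it in no pool were Bmp2, Bmp5, Bmp6, Bmp7, Bmp8a, Bmp8b, Bmp10, Bmp15, Gdf3, Gdf5, Gdf9, Gdf10 and Gdf11. Bmp8a and Bmp8b are near-identical copies whose signals may mix. The antagonists of BMPs and activins, Chrd, Nog and Fst, were not above it in any pool either. At the 75th percentile limit, however, Bmp4, Gdf5 and Gdf9 passed on all arrays.

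TGF-beta ligands were above the limit in part. Tgfb2 gave 488.6, 548.5 and 545.8 in pools 1 to 3 (mean 527.6 ± 33.8, SD, n = 3), close to the limit but above it each time. Tgfb3 read 521.0 and 554.1 in pools 1 and 3 and 377.3, below the limit, in pool 2, a difference of at least 1.14-fold. Inhbc, an activin subunit best known from liver, read 291.9, 572.5 and 422.6 and was below the limit in pool 1. Tgfb2 was thus the ligand of the whole set that every pool measured above background. Tgfb1 and the activin subunits Inhba, Inhbb and Inhbe were above the limit in no pool. At the 75th percentile limit Tgfb3 and Inhbc also passed on all arrays.

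Among receptors of BMPs, activins and TGF-betas, the type II activin receptors were those above the limit in every pool. Acvr2a gave 606.1, 585.6 and 604.8 in pools 1 to 3 (mean 599 ± 11.5, SD, n = 3), a 1.04-fold range. At the 95th percentile limit Acvr2a did not pass in every pool. Acvr2b read 992.6, 785.7 and 1161 (mean 979.7 ± 188, SD, n = 3), a 1.48-fold range, lowest in pool 2. Both bind activins and some BMPs and GDFs. Acvrl1, an endothelial type I receptor also called Alk1, read 419.3, 453.8 and 396.3 and was above the limit in pool 3 alone, where the limit is lowest. Acvr1, Acvr1b, Bmpr1a, Bmpr1b, Bmpr2, Tgfbr1, Tgfbr2 and Tgfbr3 were above it in no pool, so no type I partner passed in all pools.

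Smads from both branches were above the limit. Smad1, which carries BMP signals, gave 1076, 1382 and 1031 in pools 1 to 3 on its brighter probe set (mean 1163 ± 191, SD, n = 3). Smad2, which carries activin and TGF-beta signals, read 607.5, 581.8 and 687.4 (mean 625.6 ± 55.1, SD, n = 3), a 1.18-fold range. At the 95th percentile limit Smad2 did not pass in every pool. Smad4, the partner shared by both, read 1565, 1161 and 1135 (mean 1287 ± 241, SD, n = 3), a 1.38-fold range. Each of these 3 Smads was above the limit in all pools, with the extremes falling in different pools for different genes. Smad3, Smad5 and the inhibitory Smad6 and Smad7 were above it in no pool.

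Among 4 genes taken in by name alone, Tgfb1i1, the focal adhesion adaptor Hic-5, gave 876.0, 637.1 and 740.2 in pools 1 to 3 (mean 751 ± 119.8, SD, n = 3). Bmp1, a protease that processes procollagens and chordin and is no BMP ligand, read 409.6, 137.1 and 457.1 and passed in pool 3 only. Bmp2k, a kinase, and Tgfbi, a matrix protein induced by TGF-beta, were above the limit in no pool.

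Genes with more than 1 probe set showed how far a call hangs on the probes. There were 15 such genes with 34 sets. For Smad1 every set was above the limit on all arrays, for Acvr2a and Fzd4 only some sets were, and for the other 12 no set was. The other Smad1 set gave 983.4, 619.2 and 631.4 in pools 1 to 3, highest in pool 1, whereas the brighter set was highest in pool 2. The order of the pools for Smad1 therefore depended on the probe set. The other Acvr2a set read 186.9, 414.1 and 204.3, below the limit throughout. For Fzd4, the other sets read 31.5, 28.7 and 161.9, and 43.6, 37.6 and 11.1. The bright Fzd4 signal came from a set with the suffix _s_at, which marks probes that can match several transcripts, as did those of Fzd3 and Bmp4. The other Fzd3 set read 108.3, 142.5 and 53.5, the other Bmp4 set 50.9, 130.8 and 80.0, and the other Lrp6 set 42.0, 102.1 and 82.3. The other Tgfb3 set read 30.3, 85.4 and 96.0, the other Dvl2 set 91.2, 157.9 and 229.9, and the other Bmp1 set 364.3, 319.1 and 232.7. The other Acvrl1 sets read 420.7, 370.0 and 215.3, and 174.3, 181.4 and 200.4. All of these lay below the limits, so the calls of Acvr2a, Fzd3, Fzd4, Bmp4, Lrp6, Tgfb3, Dvl2, Bmp1 and Acvrl1 each rested on a single set. Some dim sets also carried a suffix, _i_at and _r_at for Fzd4 and _r_at for Bmp4 and Dvl2. The other Acvrl1 sets carried _r_at and _g_at, and the brighter Smad1 set _g_at. For Bmp2, Bmp6, Gdf3, Tgfbi and Wnt10b no set was above the limit on any array.

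**Figure D3:**
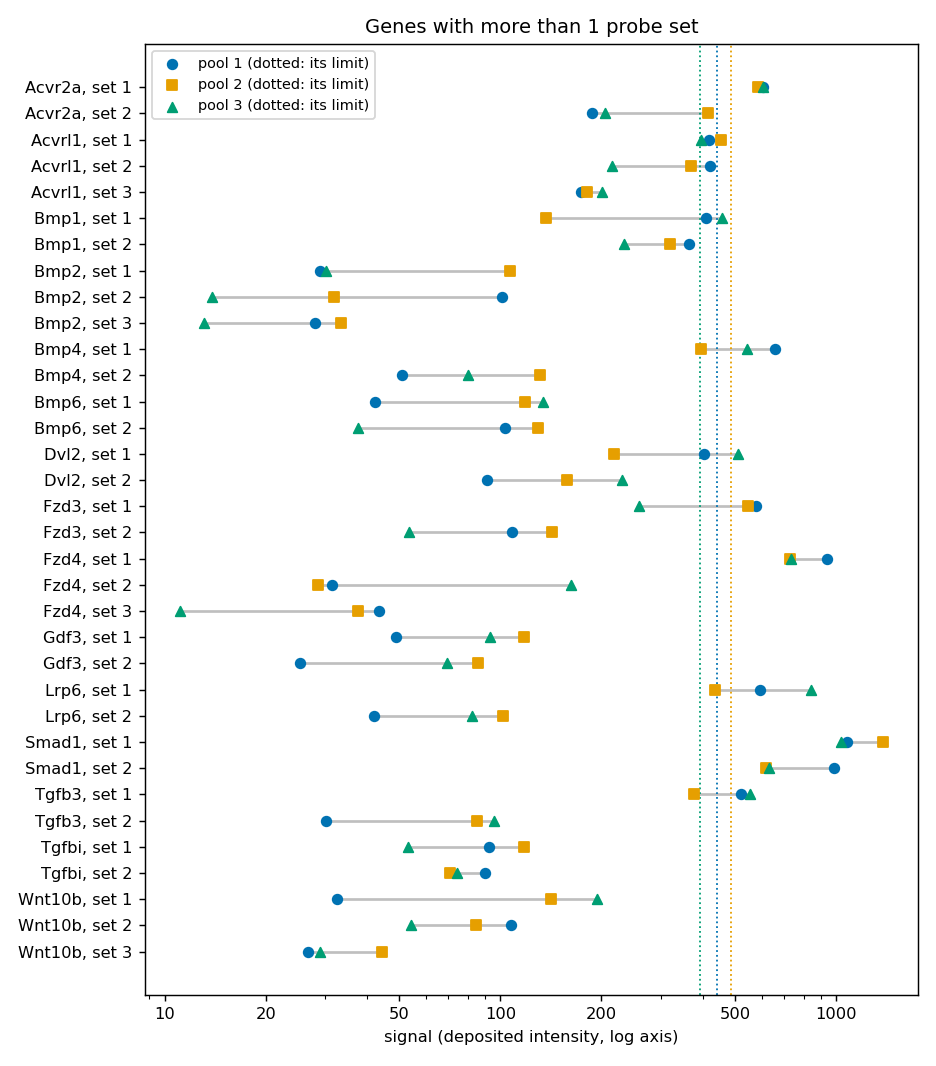
Signal in each pool (x axis, log scale) for the 34 probe sets of the 15 genes with more than 1 set (y axis, brightest set first), with dotted lines at the limit of each pool. The sets of Fzd4 and Bmp4 lie far apart, and both sets of Smad1 lie above the limits.

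Partners of the Wnt pathway that the name rule does not cover were counted in the same way, by the brightest probe set of each gene. Among the partners and targets named from here on, Ryk, Lef1, Csnk1a1, Tcf7l1, Tcf7l2, Ccnd1, Mycn and Tob1 each had another set, not shown. The Tcf7l2 values came from a set with the suffix _f_at. Of 11 measured genes of secreted and membrane partners, 0 were above the limit on all arrays, 2 on 1 or 2 and 9 on none, against the 34.7% of all genes given above. The antagonist Frzb read 26.4, 61.3 and 285.5 in pools 1 to 3, Wls, which carries Wnt proteins to the cell surface, 112.8, 92.1 and 221.3, and Ror1 20.0, 54.6 and 35.7. Ryk, a Wnt co-receptor, read 501.2, 373.5 and 305.4 and was above the limit in pool 1. Of 23 intracellular and nuclear genes, 15 were above on all arrays, 5 on 1 or 2 and 3 on none, against 34.7% of all genes above on all arrays. Lef1, a nuclear partner of beta-catenin, read 770.0, 733.8 and 745.9, with pools almost equal, and the kinase gene Csnk1a1 read 2655, 2497 and 2504. Of the other TCF genes, Tcf7l1 read 386.0, 133.6 and 433.2 and Tcf7l2 read 705.3, 500.2 and 154.1, so the pools differed for both and each fell below the limit in at least 1. Csnk1e, a kinase that also acts in the clock, exceeded the limit in every pool yet varied more than 2-fold, at 1550, 535.6 and 686.0.

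Genes known elsewhere as Wnt targets were above the limit on all arrays in 4 of 13 cases and on none in 9, a share near the 34.7% of all genes. Ccnd1, cyclin D1, read 1174, 768.2 and 717.7, and Mycn read 677.5, 511.9 and 401.7, both highest in pool 1. Myc read 42.4, 91.2 and 10.2 and Jun 439.5, 280.8 and 287.8, below the limit throughout. These genes have many other regulators, so their levels are no readout of the pathway.

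Around the BMP and TGF-beta pathways, 0 of 20 secreted and surface genes were above the limit on all arrays, 2 on 1 or 2 and 18 on none, beside the same 34.7% of all genes. The antagonists Grem1 (55.2, 101.9 and 48.8), Cer1 (57.8, 118.7 and 102.9), Nbl1 (73.9, 116.2 and 62.3) and Twsg1 (302.2, 386.9 and 384.8) were all below it. Of 12 intracellular genes 3 were above on all arrays, 3 on 1 or 2 and 6 on none, which is not far from that share. Tob1, an antiproliferative protein that binds Smads, read 1219, 1265 and 2116 in pools 1 to 3. Ski, a co-repressor of Smads, read 809.1, 482.3 and 229.7 and was above the limit in pool 1 alone, and its relative Skil read 22.8, 102.0 and 27.8. Tgif1, a further co-repressor, read 206.8, 59.7 and 157.9. Only Tob1 of these 4 was above the limit throughout.

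Of 14 measured target genes of BMP and TGF-beta, 7 were above the limit on all arrays, 3 on 1 or 2 and 4 on none, against 34.7% of all genes above on all arrays. The Id genes encode inhibitors of bHLH factors and are standard targets of BMP-activated Smads. Id2 read 720.5, 716.6 and 631.0, Id3 read 896.3, 831.3 and 1116, and Id4 read 676.8, 730.8 and 1048. Id1 read 461.9, 278.3 and 468.9 and was below the limit in pool 2. So 3 of the 4 Id genes were above the limit in every pool, but as for the Wnt targets, the levels of these genes are no readout of the pathway. Tsc22d1, first found as a TGF-beta-stimulated gene, was above the limit throughout and varied more than 2-fold, at 1936, 2371 and 4175.

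The spread between pools was close to that of all probe sets on the same side of the limit. Of the 103 probe sets, 18 were above the mean limit of 440.0 on average over pools, and their median SD was 0.24 on the log2 scale against 0.26 for all 4269 such sets. The other 85 had a median SD of 0.63 against 0.62. A range over 1 log2 unit, that is 2-fold, was reached by 2 of the 18 (11.1%), Axin1 and Fzd3, against 10.7% of all such sets. Leaving out pool 1 or pool 2 made this count 1 and leaving out pool 3 made it 0, and a range over fewer pools is smaller by construction. Both genes were below the limit in their lowest pool.

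**Figure D4:**
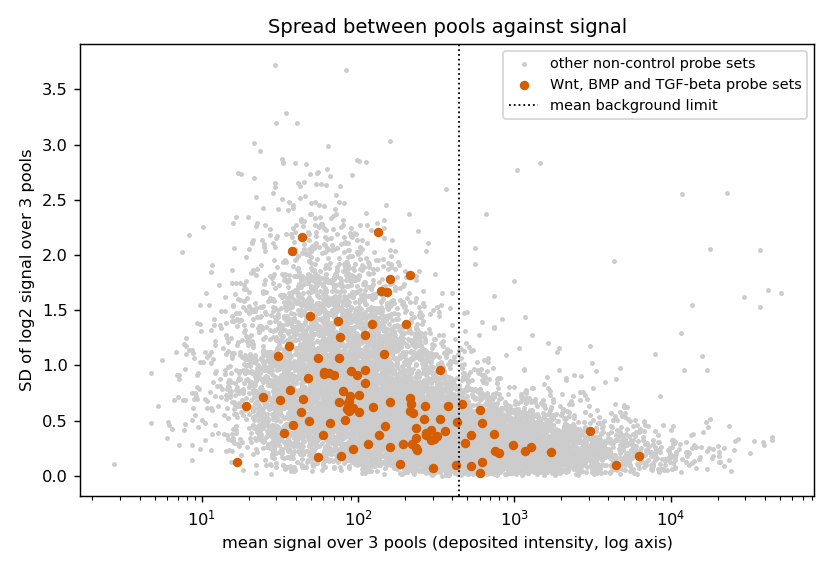
SD of log2 signal over the 3 pools (y axis) against mean signal (x axis, log scale) for the 103 Wnt, BMP and TGF-beta probe sets (orange) and the other non-control probe sets (grey), with the mean background limit dotted. The median SD of the orange points right of the line was 0.24, that of those left of it 0.63.

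Pool 2 was the lowest for most of the members above the limit on average. Of these 18 sets, 13 (72.2%) were lowest in pool 2, against 35.9% of all such sets, 2 in pool 1 and 3 in pool 3. Among the 13, Lrp6 (434.9), Axin1 (357.1), Bmp4 (394.9) and Tgfb3 (377.3) were below the limit in pool 2 and entered through the other pools. Others were nearly tied with the next pool, at 731.2 against 731.6 for Fzd4, 585.6 against 604.8 for Acvr2a and 619.2 against 631.4 for the dimmer Smad1 set. The median of log2 signal minus the mean of the pools was 0.13 in pool 1, -0.18 in pool 2 and 0.033 in pool 3, against 0.026, -0.0063 and -0.015 for all such sets. Without pool 1 the members' median in pool 2 was -0.074, and without pool 2 that in pool 1 was -0.021. With all 103 sets and no filter on low values, the median in pool 2 was 0.14, and 29 sets (28.2%) were lowest there against 27.2% of all sets. Lens markers were likewise lowest in pool 2, all 9 of them, with Cryaa at 30501, 4703 and 76094, and their part in the result was not tested. Lens genes ranged up to 34.8-fold between pools. The order of the lens genes, lowest in pool 2 and highest in pool 3, was that of 6 of the 18 sets, Lrp6, Dkk3, Axin1, Tgfb3, Acvr2b and Smad2, against 18.7% of all such sets, and 7 sets (38.9%) were lowest in pool 2 but highest in pool 1, against 17.1%. With the limit at the 75th percentile, 20 of 44 sets (45.5%) were lowest in pool 2, against 32.8% of all such sets.

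**Figure D5:**
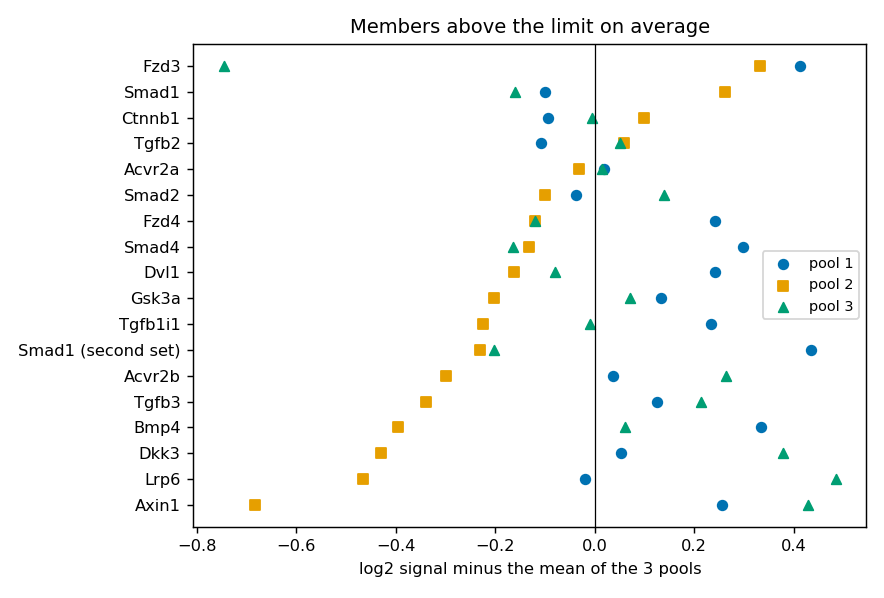
Log2 signal of each pool minus the mean of the 3 pools (x axis) for the 18 probe sets above the limit on average (y axis, sorted by pool 2). Pool 2 (squares) is the lowest point for 13 of the 18, and Fzd3 is low in pool 3 instead.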

How the data were processed

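Each sample, per the labels, was total RNA of pooled neural retinas. The deposited table holds 1 linear intensity per probe set, and the way the authors derived this intensity was not given in the sources used. Its mean after trimming 2% at each end was 500.2 to 500.3 on every array, as global scaling would give, so values were used as deposited. Symbols were those of GEO's dated platform annotation, updated through Entrez numbers from RefSeq (GRCm38.p6) for 10817 of 10833 probe sets with 1 symbol. All 103 symbols matched there. The 66 control probe sets and 396 with several symbols were left out of gene lists. Signals under 1 were raised to 1 for log2. A gene was represented by its brightest probe set. "At least" folds divide the highest signal by the limit of the lowest pool. Members, lists, limits and alternatives were chosen with earlier results of these data known. Genes above the limit on any array, genes with several probe sets, the first 4 measured genes of each pathway list, and list genes that varied more than 2-fold while above the limit in every pool were named. Ndp was named for its link to Fzd4. Signals of different probe sets were not ranked. The number of arrays limits precision. Alternatives were other limits, scalings, pseudocounts, probe set choices and leaving out each pool. The summaries were tested on simulated data. Python 3.11.15, numpy 2.4.6 and pandas 2.3.3 were used.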

Additional observations from a re-analysis of the deposited data

How the results depend on the processing

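Counts changed with the limit on background. At the 75th percentile 32 member probe sets (against 46.9% of all sets) and 29 genes were above it on all arrays, and 11 of the 44 sets above it on average had a range over 1 log2 unit, against 17.9% of all such sets. At the 95th percentile 8 sets and 8 genes were above it, and 0 of 12 had such a range, against 9.23%. With no filter on low values, which adds the dim sets, 54 of 103 sets had it, against 41.5% of all, the median shift of pool 2 turned from -0.18 to 0.14, and 29 of 103 sets were lowest in pool 2, close to the share of all sets, a count that was 20 of 44 with the 75th percentile limit. Averaging the probe sets of a gene left 10 genes above the limit, against 31.4% of all genes. The 5 alternatives for sets lowest in pool 2 were chosen after seeing the data, and the count was 9 of 12 with the 95th percentile limit, 14 of 18 with median scaling and 13 of 18 with quantile normalization. Leaving out each pool gave 14 to 17 sets and 13 to 16 genes above the limit, with 0 to 1 sets of wide range. A gene above it on 3 arrays is above it on any 2 by construction. The shift of pool 1 was -0.021 without pool 2. Of 132 values of named members, 131 moved by less than the SD between pools, the exception being Acvr2a with a pseudocount of 16. Leaving out 1 pool cannot move a mean by as much as this SD, so those values could not count as moved. No test applied, as there was 1 group.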
